A study of Mus musculus with 24 samples.

Results

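The libraries described here are the 11 knockout libraries of a set of 24 from mouse hippocampus: 6 from unstressed knockout controls and 5 from knockout mice after social defeat. They were chosen by genotype in the sample titles, and no measured value entered that choice. The other 13 libraries were 7 from wild-type (WT) controls and 6 from stressed WT mice. These 13 entered the fit to estimate the spread and to test whether the stress effect differed between genotypes. They also entered the filter on low counts and the scaling of library sizes. Genes past the threshold in WT mice were also among those named. All mice had the C57BL/6 strain background. The knockout (KO) lacked the interleukin-1 receptor 1 (IL-1R1) in neurons, and the stress was a paired-fighting form of social defeat, against which controls were not stressed. The labels name neither the driver of the deletion nor the number of defeat sessions, the sex and age of the mice or the hour of dissection. The labels also do not tie each library to its own mouse, so the p-values measure the spread between libraries, which may be technical in part.

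Interleukin-1 beta is a cytokine that myeloid cells release when they are activated. It acts through IL-1R1, which in the brain is found on endothelial cells and on some neurons, above all in the hippocampus, and from there signals through MyD88 and NF-kappaB. Social defeat is known to bring young myeloid cells from the bone marrow and spleen into the circulation and to activate the endothelium and microglia of the brain. A deletion restricted to neurons leaves the receptor of endothelial cells in place.

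Each of the 11 libraries held 25711872 to 30002237 counts and detected 17777 to 18326 genes. Levels are given as CPM, a gene's counts scaled to a common library size, on which scale 3 reads amount to 0.0987 to 0.117 CPM, a floor for counting error only. Levels of Rn45s, the precursor of ribosomal RNA, divided the libraries into the same classes as the numbers in the titles. Set 1 (KO control 1 to 4, KO stress 1 and 2) had 24238 to 50453 CPM and set 2 (KO control 5 and 6, KO stress 3 to 5) had 5244 to 8786 CPM. The labels do not say what the sets are. Tissue content differed between single libraries as well. The thalamic transcription factor gene Tcf7l2 stood at 109 and 86.9 CPM in KO stress 3 and 5, and at 5.66 to 54.0 CPM in the other 9. KO stress 1 carried liver transcripts and KO stress 3 and 5 carried pituitary transcripts. KO control 5 was highest for photoreceptor transcripts and KO control 1 for hindbrain transcripts, with the values given further on.

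Il1r1, the targeted gene, was counted in every knockout library. Its mm10 position is chromosome 1, 40225080 to 40317257, plus strand. Its level in KO controls ran from 2.10 to 5.46 CPM with a median of 3.18, and in KO stress libraries 1 to 5 it was 3.84, 3.77, 5.71, 6.44 and 7.93 CPM. The 3 highest values were those of KO stress 3 to 5, and the groups overlapped. The mean was 3.44 ± 1.21 CPM in controls (SD, n = 6) and 5.54 ± 1.77 CPM under stress (SD, n = 5). The difference of mean log2(CPM + 0.5) was 0.62, and an exact two-sided permutation test gave p = 0.0433 (0.173 after adjustment over the 4 genes tested in this way). Within set 1 the log2 fold change of Il1r1 was −0.07 and within set 2 it was 1.52. Since the deletion is restricted to neurons and the labels do not say which exons it removes, these counts do not check the genotype.

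Across the 16313 genes tested, social defeat in knockout mice changed 1 gene past an adjusted p of 0.05 (0.00613% of the genes tested). This gene was Alas2, which encodes the erythroid 5-aminolevulinate synthase, the first enzyme of heme synthesis in developing red blood cells. Its level in KO controls ran from 2.78 to 8.40 CPM with a median of 6.69. In KO stress libraries 1 to 5 it was 17.8, 11.2, 15.3, 29.0 and 36.2 CPM. Every stress library lay above every control library, with KO stress 4 and 5 the highest and KO stress 2 the lowest. Alas2 rose 3.72-fold, with a log2 fold change of 1.90 ± 0.30 (SE) and an adjusted p of 0.0293 in the quasi-likelihood test of edgeR. Because the tissue is bulk hippocampus, more cells of a type and more RNA per cell cannot be told apart in any result given here.

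Over all genes the knockout groups differed little. The median log2 fold change was 0.0052 and the median SE 0.14, and 648 genes had an unadjusted p under 0.05 (edgeR), where a uniform distribution of p-values gives 816. Of these, 369 were higher (2.26% of the genes tested) and 279 lower (1.71%). Every stress library lay above every control library for 38 genes (0.233%) and below for 11 genes (0.0674%). Among the 14511 genes whose mean reached 1 CPM in a knockout group, 71 had a log2 fold change above 1 and 20 one below −1.

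The call of Alas2 rested on single libraries and on the model, while its direction held throughout. With a term for the library set its log2 fold change was 1.79 (adjusted p = 0.0682), and it was 1.45 within set 1 and 1.93 within set 2, and 1.64 to 2.05 whichever of the 11 knockout libraries was left out. It passed in 5 of these 11 fits: its adjusted p was above 0.05 without KO control 1, 2, 3 or 6 and without KO stress 4 or 5, up to 0.180. Fitted on the 11 knockout libraries alone it had an adjusted p of 0.981.

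**Figure D1:**
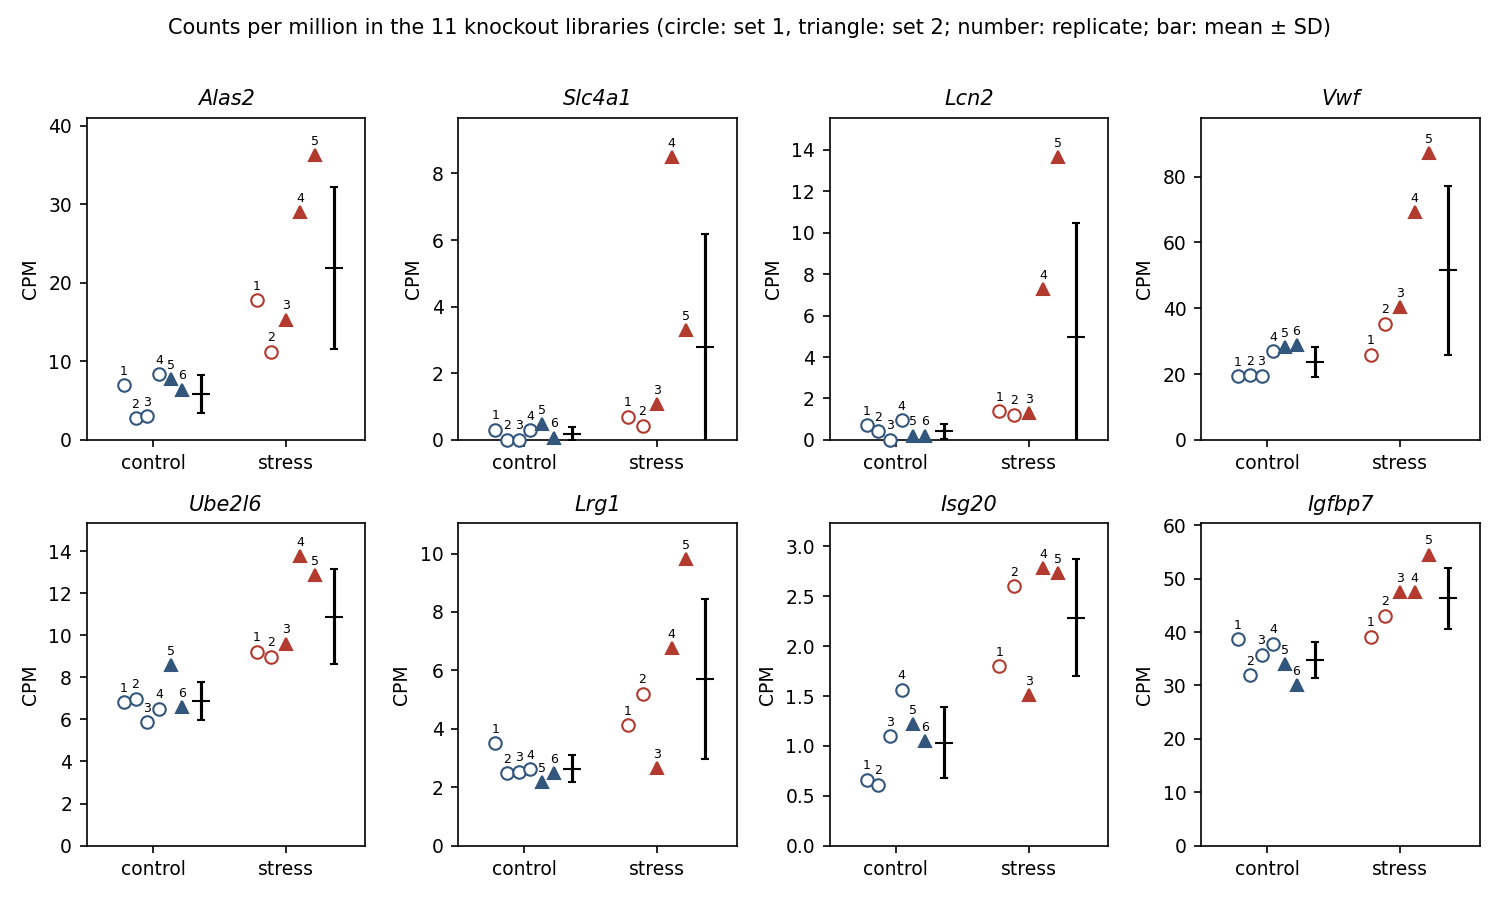
Levels of 8 genes with small p-values in the 11 knockout libraries, in CPM on linear axes; circles are set 1, triangles set 2, the number is the replicate, and the bar gives the mean and SD of 6 controls or 5 stress libraries (drawn down to 0 where the SD exceeds the mean). Alas2 stood at 11.2 to 36.2 CPM under stress and at 2.78 to 8.40 CPM in controls, and KO stress 4 and 5 were the highest for most of the genes shown.

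The proximal promoters of Alas2 and of the alpha-globin gene Hba-a2 are shown because these are the genes of red-cell heme and globin with the smallest p-values in knockout mice, and because the erythroid factor GATA1 is known to bind the letters marked in them. The sequences are the 250 bases before the RefSeq gene start (GRCm38.p6), 5′ to 3′ on the gene's strand. The first is chrX:150547167-150547416 and the second chr11:32296242-32296491, both on the plus strand. Capitals mark a match to AGATAA or TGATAA on either strand.
Alas2: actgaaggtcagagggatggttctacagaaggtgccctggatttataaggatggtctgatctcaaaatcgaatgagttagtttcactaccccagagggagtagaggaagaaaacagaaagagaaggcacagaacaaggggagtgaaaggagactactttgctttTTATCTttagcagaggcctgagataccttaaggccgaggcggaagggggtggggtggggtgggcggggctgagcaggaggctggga
Hba-a2: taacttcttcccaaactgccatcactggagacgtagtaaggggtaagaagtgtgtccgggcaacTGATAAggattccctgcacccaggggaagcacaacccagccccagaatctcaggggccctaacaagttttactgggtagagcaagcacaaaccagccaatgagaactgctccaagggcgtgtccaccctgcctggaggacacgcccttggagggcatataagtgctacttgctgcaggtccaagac
In Alas2 the match is TTATCT, from base −86 to −81 before the start, and is the motif read on the opposite strand. In Hba-a2 the match is TGATAA, from base −186 to −181. Of the 9 tested red blood cell genes 6 had a promoter in the table, and 5 of these 6 held a match, as did 5452 of the 32851 promoters of that length (16.6%). The windows of the copies Hba-a1 and Hba-a2 hold nearly the same letters, so the same match is counted for both. Slc4a1 was not among the 6. A match describes the letters of the window and was not tested as a binding site.

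Red blood cell genes included the gene that passed. Of 16 listed markers 9 passed the filter on low counts, and all 9 of these had a log2 fold change above 0, with a median of 1.25 against 0.0052 over all genes; 1 rose and 6 had an unadjusted p under 0.05 (2.26% of all genes tested were higher at that level). Genes near 0 in controls could pass the filter only through the stress libraries, so these counts and the median are partly set by the filter. Slc4a1, the anion exchanger (band 3) of the red cell membrane, had 0 to 0.475 CPM in KO controls with a median of 0.180. In KO stress 1 to 5 it had 0.692, 0.427, 1.07, 8.48 and 3.29 CPM. All but KO stress 2 lay above the highest control, and KO stress 4 and 5 were the highest. The log2 fold change was 3.85 ± 0.80 (adjusted p = 0.268, edgeR), and the control group held 32 reads in all.

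Hba-a2 had 1.22 to 3.32 CPM in KO controls with a median of 2.24, and 4.57, 2.71, 3.29, 8.81 and 6.61 CPM in KO stress 1 to 5. Values overlapped for KO stress 2 and 3, and the log2 fold change was 1.25 ± 0.32 (adjusted p = 0.931, edgeR). Its near-identical copy Hba-a1 had 0.425 ± 0.287 CPM in controls and 0.846 ± 0.605 CPM under stress, so the division of reads between the copies is uncertain. The beta-globin genes Hbb-bs and Hbb-bt were near 0 in every knockout library, with 3 control and 9 stress reads for Hbb-bs and 0 for Hbb-bt. The summed level of the list was 70.5 to 91.8 CPM in controls and 96.8 to 135 CPM under stress, with no overlap, and was highest in KO stress 5 and 4. This sum includes Alas2, and most of it came from listed genes whose values are not given here.

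Of 25 genes of heme and iron handling outside the red cell list 0 passed. Of these, 20 lay above 0 (51.4% over all genes) and 5 below, and the median log2 fold change was 0.07. Alas1, which performs the same step as Alas2 in other tissues, averaged 60.7 ± 6.13 CPM in the 6 controls and 61.6 ± 2.78 CPM in the 5 stress libraries, a log2 fold change of 0.02 ± 0.08. For the ferrochelatase gene Fech it was 0.15 ± 0.08, for the transferrin receptor gene Tfrc 0.06 ± 0.13 and for the heme oxygenase gene Hmox1 −0.13 ± 0.20. The ceruloplasmin gene Cp, a ferroxidase, had 9.02 to 11.6 CPM in controls and 10.5 to 20.6 CPM under stress, highest in KO stress 5 (0.46 ± 0.15).

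Markers of neutrophils and monocytes were higher mainly in 2 of the 5 stress libraries. Of 22 listed genes 14 were tested and 12 lay above 0 (51.4% over all genes), with 0 past the threshold. An unadjusted p under 0.05 was reached by 8 (2.26% of all genes tested were higher at that level). The median log2 fold change of the 14 was 1.71. The other 8 failed the filter, and genes near 0 in controls passed it only through stress libraries, so these counts and the median describe a selected part of the list. S100a8, a subunit of the neutrophil protein calprotectin, had 0 to 0.610 CPM in KO controls with a median of 0.208, and 0.208, 0.214, 0.403, 4.35 and 3.62 CPM in KO stress 1 to 5. S100a9, its partner subunit, had a control median of 0.424 CPM and 0.346, 0.356, 0.940, 5.34 and 5.26 CPM under stress. For both genes KO stress 4 and 5 lay above all controls and the other 3 stress libraries lay within the control range. The log2 fold changes were 2.90 ± 0.84 and 2.21 ± 0.75 (adjusted p = 0.988 for each, edgeR).

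Lyz2, the lysozyme gene of macrophages, microglia and neutrophils, had a control median of 7.04 CPM and 7.86, 10.2, 10.5, 16.0 and 20.5 CPM in KO stress 1 to 5 (log2 fold change 0.95 ± 0.31, adjusted p = 0.988). Chil3, a chitinase-like gene of myeloid cells, had 9 reads over the 6 controls and 0.0692, 0.285, 0.0671, 1.39 and 1.51 CPM in KO stress 1 to 5. Over the whole list the summed level was 17.9 to 22.7 CPM in controls, 23.1 to 27.9 CPM in KO stress 1 to 3, and 53.8 and 55.9 CPM in KO stress 4 and 5. The median log2 fold change of the list was 0.20 within set 1 and 1.23 within set 2.

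Genes that activated endothelium and acute-phase responses induce showed the same libraries at the top. Lcn2, which encodes lipocalin 2, a siderophore-binding protein, had 0 to 0.945 CPM in KO controls with a median of 0.308 and 1.38, 1.21, 1.28, 7.28 and 13.7 CPM in KO stress 1 to 5. Every stress library lay above every control, and KO stress 4 and 5 held most of the reads. The log2 fold change was 3.60 ± 0.76 (adjusted p = 0.331, edgeR), against 1.34 within set 1 and 5.14 within set 2. Vwf, the von Willebrand factor gene of endothelium and platelets, had 19.4 to 28.7 CPM in controls with a median of 23.2, and 25.8, 35.3, 40.3, 69.2 and 87.0 CPM in KO stress 1 to 5. Only KO stress 1 overlapped the controls, and the log2 fold change was 1.12 ± 0.26 (adjusted p = 0.577).

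Lrg1, a glycoprotein gene of inflamed endothelium and liver, had 2.17 to 3.51 CPM in controls with a median of 2.51. Under stress it had 4.12, 5.20, 2.65, 6.76 and 9.80 CPM, and KO stress 3 alone lay within the control range (1.12 ± 0.28, adjusted p = 0.890). The adhesion molecule gene Icam1 had 2.54 ± 0.472 CPM in controls and 4.31 ± 1.54 CPM under stress (0.76 ± 0.27). Of the 18 tested genes of this list 0 passed and 15 lay above 0 (51.4% over all genes). An unadjusted p under 0.05 was reached by 7 (2.26% of all genes tested were higher at that level). The median log2 fold change of the 18 was 0.34, with 0.04 within set 1 and 0.39 within set 2. Genes near 0 in controls could pass the filter on low counts only through stress libraries, so these counts and medians are partly set by it.

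Of the markers of the endothelial cell itself, all 22 lay above 0 (51.4% over all genes), with 0 past the threshold and a median log2 fold change of 0.18. An unadjusted p under 0.05 was reached by 3 (2.26% of all genes tested were higher at that level). Only 13 of the 22 had the same sign in both library sets. The tight junction gene Cldn5 had 59.4 ± 8.79 CPM in controls and 61.9 ± 8.32 CPM under stress (0.06 ± 0.15), and the junctional molecule gene Pecam1 had 0.11 ± 0.11. Kdr, the main receptor for vascular endothelial growth factor, had a control median of 8.43 CPM and 11.1, 6.80, 12.5, 13.8 and 20.6 CPM under stress (0.57 ± 0.24). The median of the list was 0.04 within set 1 and 0.28 within set 2. The 13 pericyte and smooth muscle markers had a median of 0.14 and the 22 microglia markers one of 0.10, both with 0 past the threshold.

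Igfbp7, an insulin-like growth factor binding protein gene of blood vessels, had 30.0 to 38.6 CPM in controls and 39.1, 43.1, 47.5, 47.5 and 54.5 CPM in KO stress 1 to 5. The groups did not overlap, although the gap between KO control 1 and KO stress 1 was narrow. The log2 fold change was 0.42 ± 0.11 (adjusted p = 0.978, edgeR). Acer2, a ceramidase gene, had a control median of 6.91 CPM and 11.5, 9.58, 9.63, 14.9 and 25.7 CPM under stress (0.88 ± 0.25).

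Interferon-stimulated genes lay slightly higher, as values. Of 27 listed, 22 lay above 0 (51.4% over all genes), with 0 past the threshold and a median log2 fold change of 0.32. An unadjusted p under 0.05 was reached by 4 (2.26% of all genes tested were higher at that level). Ube2l6 and Isg20 are outside this list and were named for their small p. Ube2l6, which conjugates the ubiquitin-like modifier ISG15, had 5.86 to 8.58 CPM in controls with a median of 6.70 and 9.21, 8.97, 9.60, 13.7 and 12.9 CPM in KO stress 1 to 5. All stress libraries were above all controls (0.66 ± 0.16, adjusted p = 0.640, edgeR), and the log2 fold change was 0.47 within set 1 and 0.67 within set 2. The exonuclease gene Isg20 had a control median of 1.07 CPM and 1.80, 2.60, 1.51, 2.78 and 2.73 CPM under stress. KO stress 3 lay just below KO control 4 at 1.56 CPM (1.14 ± 0.30, adjusted p = 0.931).

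For Isg15 itself the log2 fold change was 0.40 ± 0.22, and for the antiviral gene Rsad2 it was 0.84 ± 0.36. Ifitm3, which hinders viral entry, had 9.91 to 15.3 CPM in controls and 12.3 to 21.8 CPM under stress (0.51 ± 0.21), and it belongs to a family of similar copies. H2-Eb1, a class II antigen presentation gene, had a control median of 2.49 CPM and 3.91, 5.02, 4.16, 3.88 and 3.42 CPM under stress, with no overlap (0.80 ± 0.22, adjusted p = 0.988). It was highest in KO stress 2, not in KO stress 4 or 5.

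The pathway of the deleted receptor showed no change past the threshold. Of the 26 listed genes of IL-1 signalling 23 were tested, 14 lay above 0 (51.4% over all genes), and the median log2 fold change was 0.02. The ligand gene Il1b was close to the detection floor. It had 0 to 0.349 CPM in KO controls with a median of 0.151 and 0.346, 0.0712, 0.0671, 0.878 and 0.461 CPM in KO stress 1 to 5. The groups overlapped, and the exact two-sided permutation test of mean log2(CPM + 0.5) gave a difference of 0.29 with p = 0.294 (0.589 after adjustment over 4 genes). The difference was 0.10 without KO stress 4, 0.56 with a pseudocount of 0.1 and 0.19 with a pseudocount of 1. The co-receptor gene Il1rap had 21.4 ± 1.96 and 22.6 ± 3.51 CPM (0.08 ± 0.13), the kinase gene Irak4 had 0.59 ± 0.22, and Il18, the gene for a related cytokine, had 18.1 to 24.3 CPM in controls and 16.9 to 18.8 CPM under stress (−0.22 ± 0.09).

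Immediate early genes, which neurons transcribe on recent activity, lay lower in stressed knockout mice, with wide spread among controls. Of 26, 20 lay below 0, the median log2 fold change was −0.44, and 3 had an unadjusted p under 0.05 (1.71% of all genes tested were lower at that level). Egr3, a zinc-finger transcription factor gene, had 124 to 157 CPM in controls with a median of 137, and 106, 104, 52.9, 106 and 60.8 CPM in KO stress 1 to 5. Every stress library lay below every control, with KO stress 3 and 5 the lowest. The log2 fold change was −0.69 ± 0.24 (adjusted p = 0.988, edgeR), and −0.39 without KO stress 3 and 5 and WT stress 5, which were left out for their thalamic transcripts. Ier5 had 80.2 to 100.1 CPM in controls and 69.5, 80.3, 35.9, 75.8 and 40.4 CPM under stress (−0.56 ± 0.21), again lowest in KO stress 3 and 5.

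Fos, Arc and Npas4 were highest in KO control 5 and 6. Fos had 26.7, 14.0, 16.9, 22.1, 71.0 and 67.8 CPM in KO control 1 to 6 and 16.7, 18.2, 33.7, 30.9 and 35.96 CPM in KO stress 1 to 5. The stress values lay within the range of the controls, and the exact two-sided permutation test gave a difference of −0.20 with p = 0.673 (0.738 after adjustment over 4 genes). The synaptic gene Arc had 535 and 528 CPM in KO control 5 and 6, against 132 to 250 CPM in KO control 1 to 4 and 114 to 291 CPM under stress (−0.81 ± 0.49). The neuronal transcription factor gene Npas4 had 73.3 and 57.6 CPM in the same libraries and 11.8 to 21.9 CPM in KO control 1 to 4 (−0.81 ± 0.57). Within set 1, which holds neither library, the log2 fold change was −0.60 for Arc, −0.53 for Npas4 and −0.19 for Fos. The summed level of the list was 2471 and 2379 CPM in KO control 5 and 6, 1133 to 1403 CPM in KO control 1 to 4, and 1037 to 1660 CPM under stress. KO control 5 and 6 also had the highest levels of the pyramidal cell gene Spink8 among controls, 21.1 and 20.1 CPM against 4.11 to 7.72 CPM, and the part of tissue content in the values of this list was not tested.

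**Figure D2:**
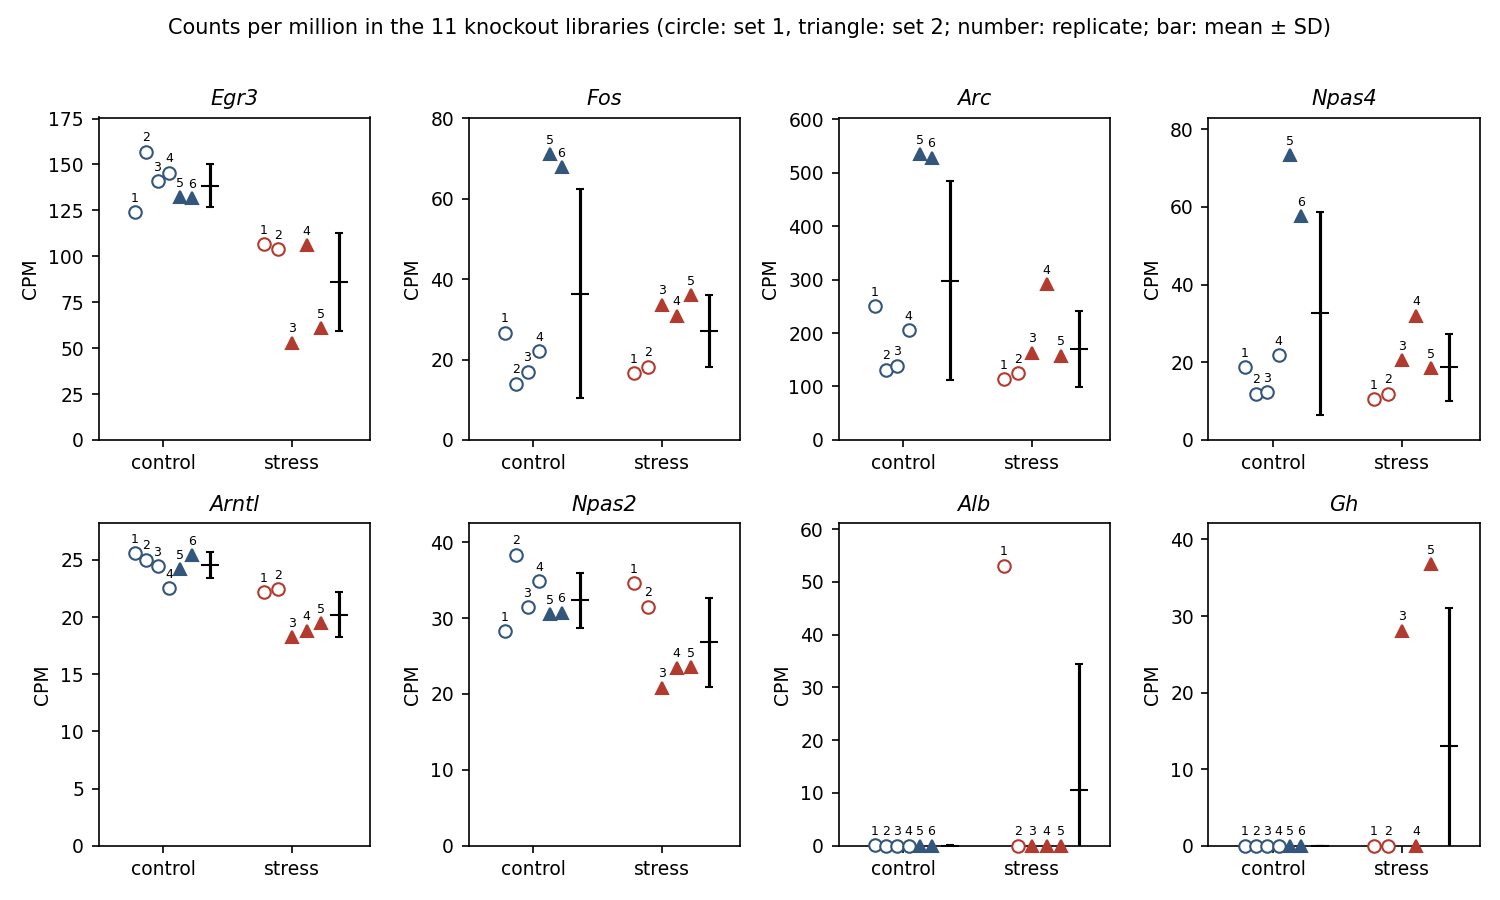
Levels of activity, clock and other-tissue genes in the 11 knockout libraries, in CPM on linear axes with the same symbols and bars as the plot of 8 leading genes. Egr3 and Arntl were lower in every stress library than in every control, Fos, Arc and Npas4 were highest in KO control 5 and 6, Alb was counted in KO stress 1 with 53.1 CPM, and Gh in KO stress 3 and 5.

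Among genes of the body clock, Arntl showed a small difference in every stress library. Arntl (also called Bmal1), an activator of the core clock, had 22.5 to 25.6 CPM in controls with a median of 24.7 and 22.2, 22.4, 18.2, 18.8 and 19.4 CPM in KO stress 1 to 5. All stress libraries were below all controls, by a small margin for KO stress 1 and 2. The log2 fold change was −0.28 ± 0.08 (adjusted p = 0.988, edgeR), with −0.13 within set 1 and −0.40 within set 2. Npas2, which can take the place of Clock beside Arntl, had 28.3 to 38.4 CPM in controls and 34.6, 31.5, 20.8, 23.5 and 23.6 CPM under stress (−0.27 ± 0.12). Its 3 low values were those of the set 2 stress libraries, and its log2 fold change within set 1 was −0.01.

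The clock output gene Dbp (0.10 ± 0.11), the period gene Per2 (0.01 ± 0.17) and the repressor gene Nr1d1 (−0.10 ± 0.13) had smaller values. Of the 15 clock genes 0 passed and the median log2 fold change was −0.05. The hour at which tissue was collected is not given in the sources used here.

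Of 22 genes that respond to glucocorticoid hormones 0 passed, 8 lay above and 14 below 0, and the median log2 fold change was −0.05. It turned to 0.16 with a term for the library set and to 0.28 within set 2. Fkbp5, which glucocorticoids induce and which restrains their receptor, had 55.0 to 89.8 CPM in controls with a median of 74.5 and 75.1, 91.5, 45.2, 84.5 and 61.6 CPM in KO stress 1 to 5. The groups overlapped, and the exact two-sided permutation test gave a difference of −0.07 with p = 0.738 (0.738 after adjustment over 4 genes). The kinase gene Sgk1 had a log2 fold change of 0.31 ± 0.33, Tsc22d3 of 0.03 ± 0.33 and the transcription factor gene Zbtb16 of −0.47 ± 0.21, all glucocorticoid targets. The stress peptide gene Crh had 6.30 ± 1.49 CPM in controls and 4.41 ± 2.00 CPM under stress (−0.51 ± 0.34), and its receptor gene Crhr1 had −0.36 ± 0.18. The growth factor gene Bdnf had 29.4 ± 4.02 and 29.9 ± 7.41 CPM (0.03 ± 0.15).

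No neuronal marker of the hippocampus among the lists passed. The 10 markers of CA1 and CA3 pyramidal cells had a median log2 fold change of −0.05, which was −0.24 with a term for the library set and −0.40 within set 2. The 10 of dentate granule cells had a median of 0.10, which turned to −0.11 with that term and −0.19 within set 2. The 17 interneuron markers had a median of −0.12, with 14 below 0. Among them the neuropeptide Y gene Npy had 63.6 to 85.7 CPM in controls and 60.1, 81.1, 34.4, 55.4 and 24.5 CPM in KO stress 1 to 5 (−0.47 ± 0.23), and the vasoactive intestinal peptide gene Vip had 26.3 to 34.5 CPM in controls and 26.7, 33.5, 9.63, 22.9 and 11.5 CPM under stress (−0.48 ± 0.30). For both genes KO stress 3 and 5 were the lowest, and without them and WT stress 5 the log2 fold changes were −0.11 and −0.07. KO stress 3 and 5 had the highest summed levels of thalamus and habenula markers, 1028 and 808 CPM, but the other 9 libraries also held these transcripts, at 199 to 746 CPM. The 26 glutamate receptor and synapse genes had a median of −0.06 and the 13 tested GABA-A receptor genes one of 0.01.

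Markers of tissue next to the hippocampus differed between libraries by far more than between the groups. Ttr, the transthyretin gene of the choroid plexus, had 176, 1734, 1432, 1075, 16.3 and 18.3 CPM in KO control 1 to 6 and 724 to 1919 CPM under stress. KO control 1, 5 and 6 were the 3 lowest libraries. All 19 choroid plexus markers lay above 0 in the comparison (51.4% over all genes), with a median log2 fold change of 0.85, and 0 passed. Their summed level was 165 to 2571 CPM in controls and 1161 to 2760 CPM under stress. The 15 thalamus and habenula markers had a median of 0.51 (0.12 without KO stress 3 and 5 and WT stress 5), and the 11 tested striatal markers one of −0.55, led by KO control 2, whose level of the striatal receptor gene Adora2a was 66.9 CPM against 3.39 to 39.9 CPM in the other 10 libraries.

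**Figure D3:**
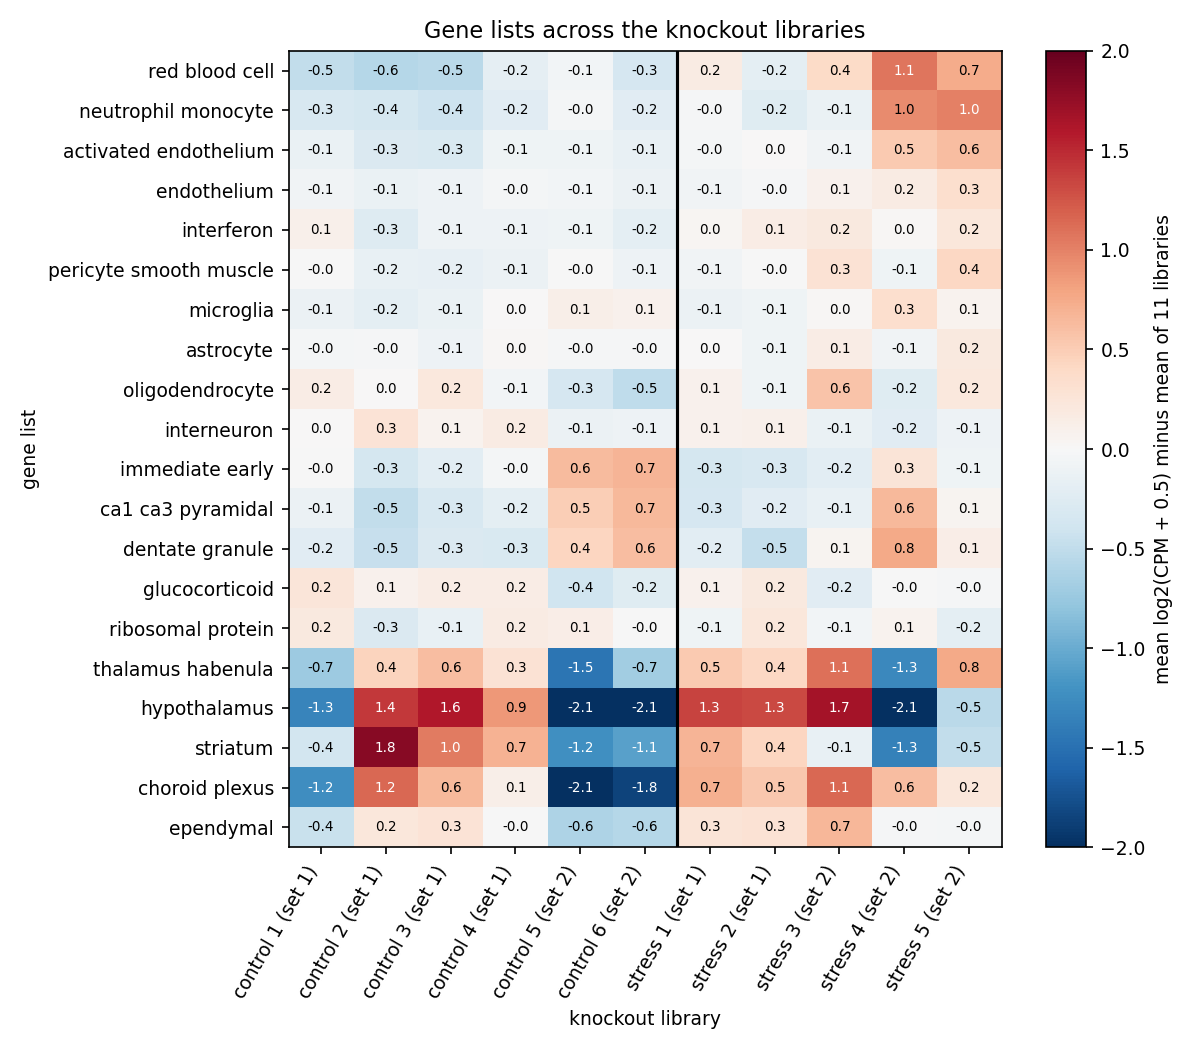
Mean log2(CPM + 0.5) of the tested genes of 20 lists in each knockout library, as the difference from the mean of the 11 libraries; rows are lists, columns are libraries with their set, and the line separates 6 controls from 5 stress libraries (colours end at 2 in both directions). Red blood cell and neutrophil and monocyte genes were highest in KO stress 4 and 5, immediate early and pyramidal cell genes in KO control 5 and 6 and KO stress 4, and choroid plexus genes were lowest in KO control 1, 5 and 6.

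Some knockout libraries held transcripts of tissues other than brain. The part of these transcripts in the values of genes with small p was not tested. Alb, the liver's albumin gene, had 53.1 CPM in KO stress 1 and at most 0.0780 CPM in the other 10 libraries. KO stress 1 likewise held the liver genes Serpina3k (15.2 CPM), Hpx (12.05), Apob (10.4) and Mup3 (10.1), of which the Serpina3 and Mup genes belong to families of similar copies. The summed level of 20 liver genes was 184 CPM in KO stress 1 and 2.41 to 4.74 CPM in the other 10 libraries. The growth hormone gene Gh of the pituitary had 28.1 and 36.8 CPM in KO stress 3 and 5 and 0 in the other 9, and the prolactin gene Prl had 10.9 and 5.13 CPM in the same libraries and at most 0.219 elsewhere. The olfactory marker gene Omp was highest in KO stress 2 (2.49 CPM, 0.136 to 0.819 in the others). The summed level of the 5 listed olfactory genes was instead highest in KO control 4, at 62.5 CPM against 56.3 CPM in KO stress 2. Controls held transcripts from outside the hippocampus too. The summed level of photoreceptor genes was 55.8 CPM in KO control 5 and 3.07 to 16.8 CPM in the other 10 libraries. For genes of the hindbrain, a part of the brain outside the hippocampus, it was 13.1 CPM in KO control 1 and at most 2.57 CPM elsewhere.

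Hp, Bhmt and Cyp2f2, which rank among the 20 genes with the smallest p, were highest in KO stress 1. The haptoglobin gene Hp, made by liver and myeloid cells, had 6.79, 0.320, 0.436, 0.878 and 1.58 CPM in KO stress 1 to 5 and a control median of 0.191 CPM (log2 fold change 2.95 ± 0.66, adjusted p = 0.449). Bhmt, a liver enzyme of methionine recovery, had 8.45 CPM in KO stress 1 and at most 0.512 elsewhere (4.73 ± 1.24 over 12 control reads). Cyp2f2, a cytochrome of airway and liver, had 2.56 CPM in KO stress 1 and 0.604 to 0.878 CPM in KO stress 2 to 5, above the control range of 0.136 to 0.480 CPM in all 5. Without KO stress 1 the log2 fold changes were smallest among the fits that left out a library, 1.64 for Hp, 2.25 for Bhmt and 1.45 for Cyp2f2.

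The DESeq2 Wald test called 12 genes, all higher (0.0575% of the 20881 it adjusted over). Alas2, Slc4a1, Lcn2, Vwf and Hp were among them with adjusted p-values of 3.04e-07, 0.000778, 0.0223, 0.0107 and 0.00904. Also among the 12 were Mup13, Serpina3k, Mug1 and Gm2083, which had at least 10 reads in 1 knockout stress library only, and Gh, with at least 10 reads in 2. Those 2 libraries were KO stress 3 and 5, and the 1 library was KO stress 1.

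The 20 genes of smallest p comprised 17 that were higher and 3 that were lower under stress. Of the 17, 7 were highest in KO stress 5, 5 in KO stress 4, 3 in KO stress 1 and 1 each in KO stress 2 and 3. In 8 of the 20 the groups did not overlap, and all 20 kept their sign within both library sets and whichever knockout library was left out. The 20 were chosen for small p in these same libraries, and that choice itself favours both results. Odf3b, a gene of motile cilia and sperm tails, had a control median of 3.33 CPM and 6.02, 8.08, 11.2, 5.38 and 3.88 CPM in KO stress 1 to 5 (1.03 ± 0.26, adjusted p = 0.912). KO stress 3 was the highest, as it was for the ependymal gene Foxj1, the master regulator of motile cilia, at 35.1 CPM against 7.87 to 25.2 CPM in the other 10 libraries. The RNA-binding protein gene Rbm38 had a control median of 4.87 CPM and 5.92, 7.58, 7.11, 7.61 and 7.60 CPM under stress without overlap (0.62 ± 0.18), and the muscle chaperone gene Unc45b had 2.46 ± 0.442 and 3.63 ± 0.385 CPM (0.56 ± 0.15).

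The 3 lower genes of the 20 were 4931414P19Rik, Arntl and Hace1. The uncharacterised protein-coding gene 4931414P19Rik had 4.16 to 6.51 CPM in controls with a median of 5.37 and 3.46, 4.20, 3.49, 3.58 and 3.36 CPM in KO stress 1 to 5. Only KO stress 2 reached the lowest control, and the log2 fold change was −0.57 ± 0.14 (adjusted p = 0.890, edgeR), with −0.51 within set 1 and −0.56 within set 2. In WT mice it was −0.04 ± 0.13. The gene was chosen for its small p in knockout mice, which favours a difference from WT, and the adjusted interaction p was 0.999992 in edgeR. The ubiquitin ligase gene Hace1 had 29.7 ± 2.84 CPM in controls and 24.7 ± 2.44 CPM under stress (−0.27 ± 0.08).

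Among the 11 genes whose stress libraries all lay below the controls, the largest differences beside Egr3 and Arntl were those of Nupr1l, Efcab7, Efcab6 and Vopp1. Nupr1l, a nuclear protein gene, had 0.949 to 1.75 CPM in controls and 0.692, 0.855, 0.470, 0.878 and 0.592 CPM under stress (−0.98 ± 0.29, adjusted p = 0.988). Efcab6, an EF-hand calcium-binding protein gene, had 7.91 to 14.0 CPM in controls and 6.09 to 7.48 CPM under stress (−0.65 ± 0.20). Vopp1 had 88.2 to 102 CPM in controls and 64.3 to 88.1 CPM under stress (−0.29 ± 0.12), with KO stress 1 just under the lowest control.

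Among the 38 genes whose stress libraries all lay above the controls, the largest values beside Lcn2, Cyp2f2 and Alas2 were those of Rhod, Gm867 and LOC100503676. The small GTPase gene Rhod had 0.678 to 0.984 CPM in controls and 1.21, 1.10, 2.75, 1.46 and 2.04 CPM under stress (1.10 ± 0.32). Gm867 had 0.271 to 1.71 and 1.84 to 2.70 CPM (1.04 ± 0.39). None of these genes passed the threshold.

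**Figure D4:**
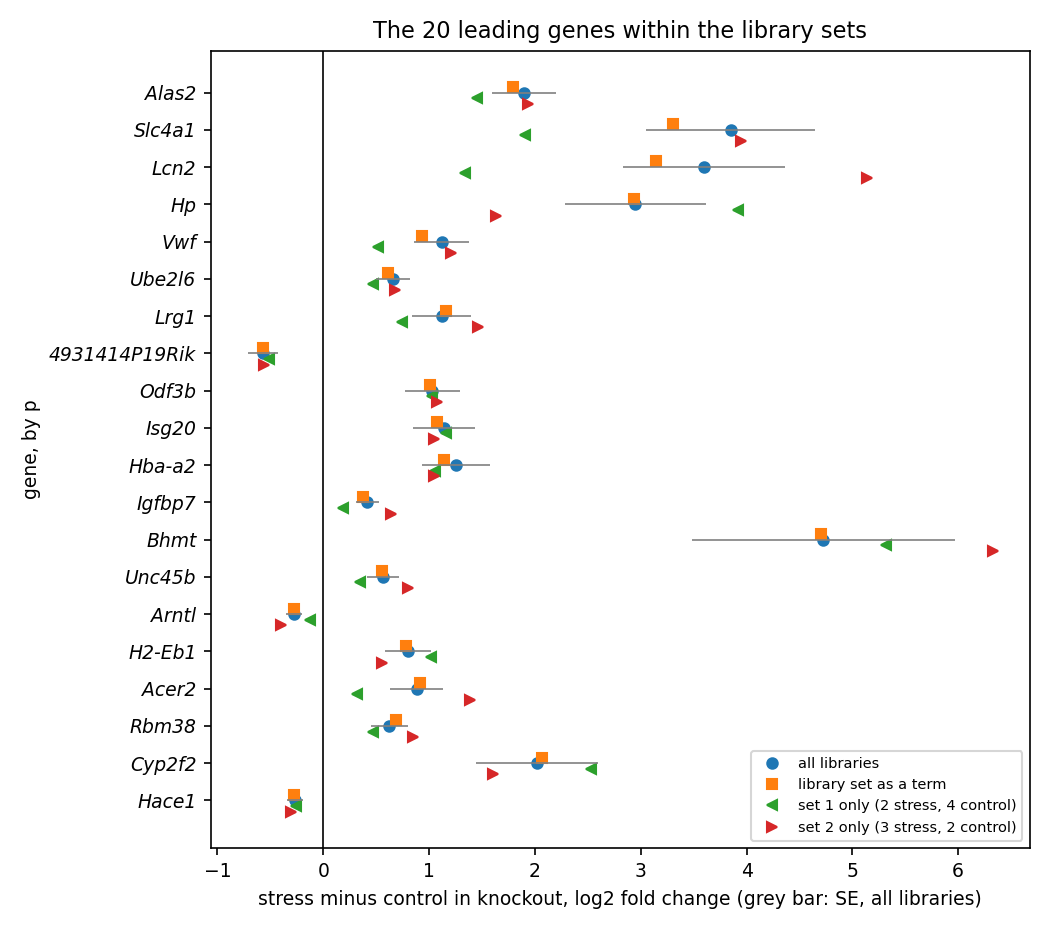
Log2 fold change of stress against control in knockout mice for the 20 genes with the smallest p, from all libraries with the SE as a grey bar, with the library set as a term, and within each set. All 20 kept their sign in both sets, which their choice for small p in these same libraries favours. The size differed between sets for Lcn2 (1.34 and 5.14), Vwf (0.52 and 1.21) and Acer2 (0.32 and 1.39).

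The choice of the 20 leading genes for small p in these same libraries favours a kept sign. All 20 kept their sign in both library sets, and several differed in size. For Vwf the log2 fold change was 0.52 within set 1 (2 stress and 4 control libraries) and 1.21 within set 2 (3 and 2). For Slc4a1 it was 1.90 and 3.95, for Acer2 0.32 and 1.39 and for Igfbp7 0.19 and 0.64. For Hba-a2 it was 1.05 and 1.04, for Isg20 1.16 and 1.04, for Odf3b 1.03 and 1.08 and for 4931414P19Rik −0.51 and −0.56. With the set as a term in the fit over all 24 libraries 0 genes passed in edgeR, and 0 passed within either set alone. Outside the leading genes the agreement of sign varied between lists. The sign was the same in both sets for 1 of 31 ribosomal protein, 2 of 17 oligodendrocyte and 13 of 26 glutamate receptor and synapse genes. It was the same for 21 of 26 immediate early, 21 of 27 interferon-stimulated and 17 of 19 choroid plexus genes. The share over all genes is not given here. The difference between the sets was not tested for single genes.

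The effect of stress in knockout mice was set beside that in WT mice in the same fit. No gene differed between the genotypes past the threshold in the interaction test of edgeR (smallest adjusted p 0.999992), and 384 genes had an unadjusted p under 0.05 (2.35%). In WT mice 22 genes passed (0.135%), all of them higher. All 22 had a log2 fold change above 0 in knockout mice too (51.4% over all genes). An unadjusted p under 0.05 was reached there by 19 (2.26% of all genes tested were higher at that level). For 4 of the 22 every KO stress library lay above every KO control (0.233% of all genes tested). Genes near 0 in controls could pass the filter on low counts only through stress libraries, so these counts are partly set by it. The median log2 fold change of the 22 was 1.46 in WT and 1.12 in knockout mice, and each of the 22 was smaller in knockout mice. Since the 22 were chosen by their WT values, that choice itself favours larger values in WT.

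Alas2 had 2.50 ± 0.28 in WT and 1.90 ± 0.30 in knockout mice, a difference of −0.61 ± 0.40 (unadjusted p = 0.146). Vwf had 1.30 ± 0.24 and 1.12 ± 0.26 (difference −0.18, unadjusted p = 0.610), and Lcn2 had 5.15 ± 0.75 and 3.60 ± 0.76 (−1.55, unadjusted p = 0.156). Of the 22 genes 7 had an unadjusted interaction p under 0.05. The smallest were those of Gm694 (1.06 in WT and 0.14 in knockout mice, unadjusted p = 0.00353), Ly6a, a surface antigen gene of endothelium (0.94 and 0.29, unadjusted p = 0.00639), and Ctla2a, a protease inhibitor gene (1.23 and 0.51, unadjusted p = 0.00818). Ly6a and Ctla2a belong to families of similar copies. Ly6a had 24.9 to 39.5 CPM in KO controls and 24.7, 35.4, 28.6, 44.2 and 51.0 CPM in KO stress 1 to 5, so the stress libraries 4 and 5 lay above the controls and the other 3 did not. For 18 of the 22 genes KO stress 4 and 5 were the highest of the 5 knockout stress libraries.

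Of the 20 leading knockout genes 8 were among the 22 WT genes, and 19 had the same sign in WT. The exception was Bhmt, at 4.73 ± 1.24 in knockout and −0.66 ± 1.06 in WT mice, with the KO stress 1 reads described above. H2-Eb1 had 0.80 ± 0.22 in knockout and 0.19 ± 0.20 in WT mice (interaction not past the threshold in edgeR), and Odf3b had 1.03 ± 0.26 and 0.32 ± 0.24 (likewise).

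**Figure D5:**
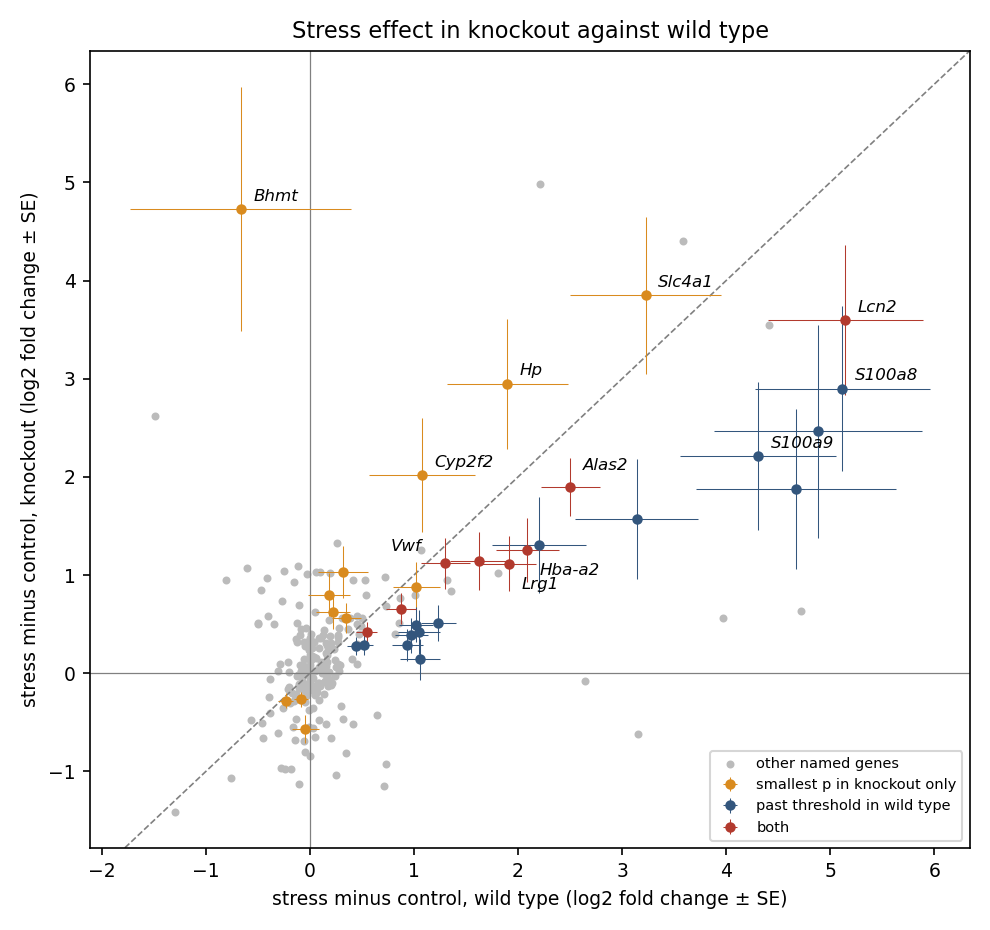
Log2 fold change of stress against control in knockout mice (vertical, 5 against 6 libraries) and WT mice (horizontal, 6 against 7), with SE, for the 22 genes past the threshold in WT, the 20 leading genes in knockout mice and the other named genes in grey; the dashed line marks equal values. The 22 WT genes all lie above 0 on the knockout axis and below the line, and Bhmt, with 8.45 CPM in KO stress 1, lies far above it.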

How the data were processed

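RNA sequencing counts per gene were taken as deposited by the authors, who used STAR, DESeq2 and the mm10 build per the submitters' processing notes; for the read counter, annotation and strand setting, the status is not given in the sources used here. Even values made up 70.9 to 75.8% of the counts from 1 to 10. The other deposited tables, of normalized values and test results, were not used.

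Of 24062 genes listed, 3153 had no count in any library and 16313 passed edgeR's filter at a minimum count of 10. All 24 libraries were fitted with the 4 groups as terms, TMM scaling and edgeR 4.0.16 quasi-likelihood tests (R 4.3.3, limma 3.58.1; 20 residual degrees of freedom, common dispersion 0.0478), with Benjamini-Hochberg adjustment and a threshold of 0.05. Fold changes are log2 with SE. CPM used library sizes after TMM scaling. Il1r1, Il1b, Fkbp5 and Fos were also tested by exact two-sided permutation with a pseudocount of 0.5. Tables were made with python 3.11.15, pandas 2.3.3 and numpy 2.4.6. The method was tested on simulated data.

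Genes were named by a rule: those 4 genes, up to 20 with the smallest p and a mean of at least 1 CPM, the first 4 and the 3 of smallest p of each of 34 lists, the genes past the threshold in WT, and 6 in each direction whose groups did not overlap. The members and lists were chosen with earlier results of these data known, and 5 lists of other tissues were added after values were seen, as were the genes Alb, Gh, Prl, Omp, Hbb-bs and Hbb-bt. Alternatives were DESeq2 1.42.0, RLE scaling, limma voom, other filters, halved counts, library sets, a replicate block and leaving out each library. Values of some genes are not reported here.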

Additional observations from a re-analysis of the deposited data

Results flagged for a closer look

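Of 58 groups of 5 or 6 knockout libraries examined for the named genes, 8 held a library far from the rest. Chance alone marks about 1 in 20 groups, but that rate does not apply here, since most genes were chosen for small p and Alb was added after its values were seen. In KO stress 1 the level was 6.79 CPM for Hp (nearest library 1.58), 8.45 CPM for Bhmt (0.512), 2.56 CPM for Cyp2f2 (0.878) and 53.1 CPM for Alb (0). In KO stress 2 the level of 4931414P19Rik was 4.20 CPM, with 3.58 CPM in the nearest. Among controls, Lrg1 had 3.51 CPM in KO control 1 (nearest 2.62), Rbm38 had its lowest value, 3.59 CPM, in KO control 5 (4.72), and Alb had 0.0780 CPM in KO control 1, below the level of 3 reads, and 0 in the others.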

How the results depend on the processing

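The count of 1 gene past the threshold in edgeR was 12 in DESeq2 and 0 with no filter on low counts, with the library set as a term, within set 1, within set 2, without KO stress 3 and 5 and WT stress 5 (thalamic transcripts), and in the knockout libraries alone with or without the set. Leaving out 1 knockout library gave 0 to 2 genes, with Alas2 among the 2 without KO stress 2. The count of genes that differed between genotypes was 0 in edgeR and 4 in DESeq2 (Serpina3k, Mug1, Mup13 and Mup3). With the replicate number as a block the count stayed 1, with Alas2 at 1.85 and an adjusted p of 0.0213. The correlations of same-numbered deviations ran from −0.24 to 0.22. They cannot decide whether the numbers pair the libraries, since KO control 3 and 4 are in set 1 and KO stress 3 and 4 in set 2. The difference for Fos turned to 0.049 without KO control 5 and 0.035 without KO control 6, and that for Fkbp5 to 0.081 without KO stress 3. Over the 11 fits that each left out a library the range was −0.41 to 0.049 for Fos, −0.17 to 0.081 for Fkbp5 and 0.10 to 0.42 for Il1b. Of the 20 leading genes, whose choice for small p favours a kept sign, 0 changed sign under any alternative. Of 242 named genes tested, 99 did under some alternative. The cause of these changes was not tested. Genes with few reads, such as Slc4a1 and Il1b, are limited by depth.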
